A study of Mus musculus with 16 samples.

Results

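The 2-oxoglutarate-dependent dioxygenases are enzymes that use α-ketoglutarate (also called 2-oxoglutarate) as a co-substrate, and 37 of their genes were followed in mouse macrophages on their way to osteoclasts. A listed gene was measured where the array had a feature annotated with that gene symbol alone, and where a gene had several such features the one with the highest mean over the 16 arrays was used. Of the 37 genes, 33 had such a feature, among 22180 genes in all. The other 4 (Kdm2b, Plod3, Alkbh1 and Jmjd6) shared their only annotated feature with a second symbol and were not analysed here. A further 4 (Kdm4d, Egln3, Plod2 and Bbox1) lay in the lowest 30% of mean values, at or under 4.34 log2, and were not tested, which left 29 genes tested among 15526. They comprise 3 enzymes of DNA, 15 of histones, 3 of the hypoxia-inducible factor (HIF), 3 of collagen, 3 of other nucleic acids and 2 others.

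The cells were bone marrow-derived macrophages from tibias and femurs of male C57BL/6 mice aged 5 weeks, cultured with M-CSF, the growth factor of macrophages. RANKL, the cytokine that drives osteoclast formation, was present with 1 mM dimethyl α-ketoglutarate (αKG) in arrays at 0.5, 1, 3, 6, 12, 24, 48 and 72 h. It was present with DW, the control treatment as labelled, in arrays at 3, 6, 12, 24, 48 and 72 h. The remaining 2 arrays, at 0 h, came from cells given M-CSF and DW but no RANKL. The labels join the times into 8 groups of 2 arrays, called fast (0.5 and 1 h, αKG alone), early (the times 3 and 6 h), intermediate (12 to 24 h), late (48 to 72 h) and control (0 h). Whether arrays stem from different cultures or mice is not stated in the labels. The p-values therefore cover the spread among these 16 arrays alone, and within a group part of that spread is time.

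Each of these enzymes couples the oxidation of its target to the breakdown of α-ketoglutarate into succinate and carbon dioxide, with iron and oxygen, so their activity is known to depend on the supply of α-ketoglutarate. TET enzymes oxidise methylated cytosine in DNA, JmjC-domain demethylases remove methyl groups from histone lysines, EGLN enzymes mark HIF for destruction when oxygen is present, and prolyl and lysyl hydroxylases modify collagen chains in the endoplasmic reticulum. The arrays measured mRNA of the enzymes and not their activity.

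The array with DW at 72 h was the least like the others, with a mean correlation of 0.928 against 0.96 to 0.975 for the rest. On it 10 of the 29 genes had their highest or lowest value. The share of all genes with an extreme value there was not counted, so this is not a result about the members. Of 6 macrophage markers all 6 lay above the cutoff on low values, and their summed level was 13.96 to 14.5 log2 in arrays with RANKL and 14.41 to 14.43 at 0 h. The sum follows the brightest genes most. Singly, 2 of the 6 passed as lower than 0 h in late DW arrays (3.30% of all genes) and 1 in late αKG arrays (0.799%), and 0 as higher (limma, adjusted p under 0.05). The 8 osteoclast markers summed to 12.21 to 13.4 in late αKG arrays, 13.76 to 14.7 in late DW arrays and 8.41 to 8.42 at 0 h. The 7 neutrophil markers summed to 7.93 to 8.7 in late αKG arrays, 7.89 to 8.31 in late DW arrays and 10.85 to 10.88 at 0 h. The 5 proliferation markers with a feature summed to 11.4 to 11.77 in late αKG arrays, 9.94 to 11.8 in late DW arrays and 11.96 to 11.99 at 0 h. In intermediate arrays these 5 summed to 10.93 to 10.94 with αKG and 11.45 to 11.51 with DW. Fewer cells of a type and less RNA per cell cannot be told apart in such cultures, and the part of these marker changes in the results was not tested.

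With αKG, 0 of the 29 dioxygenase genes passed the test against DW over the 6 shared times (limma with time as a block, Benjamini-Hochberg adjustment over 15526 genes), where 0.399% of all genes passed. At an unadjusted p under 0.05 there were 3 genes, P4ha2 and P4ha1 higher and Egln2 lower. By group, 0 of 29 passed in early arrays (0.161% of all genes, 2 members at an unadjusted p under 0.05), 0 in intermediate arrays (0.0966%, 2 members) and 0 in late arrays (4.27%, 5 members). The change of the αKG effect between late and early arrays passed for 0 of 29 (0.605% of all genes, 2 members at an unadjusted p under 0.05). The percentages are shares of all genes past the adjusted threshold. The share of all genes at the unadjusted cutoff was not counted, so the member counts at that cutoff have no background beside them.

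The intervals are for the mean difference over the times in a comparison, and do not bound the difference at any single time. Each time has 1 array per arm, so their spread includes how the difference varied between times. Kdm6b had an interval of -0.59 to 0.16 log2 over the 6 times, while its pair at 72 h differed by -1.2. Over the 6 times the 95% interval of αKG minus DW lay within 2-fold in both directions for 29 of 29 genes and within 1.5-fold for 27, with a median half-width of 0.16 log2. In late arrays it lay within 2-fold for 28 genes, Kdm6b being outside, and within 1.5-fold for 25. The differences over the 6 times ran between -0.214 and 0.437 log2 with a median of -0.024, beside a median of 0 over all genes, and 28 of the 29 were under 0.25 in size. The counts within a fold and under 0.25 were not made over all genes, so they do not set the members apart. A single sign at all 6 times was seen for 3 of the 29 genes (10.3%), beside 8.34% of all genes tested.

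**Figure D1:**
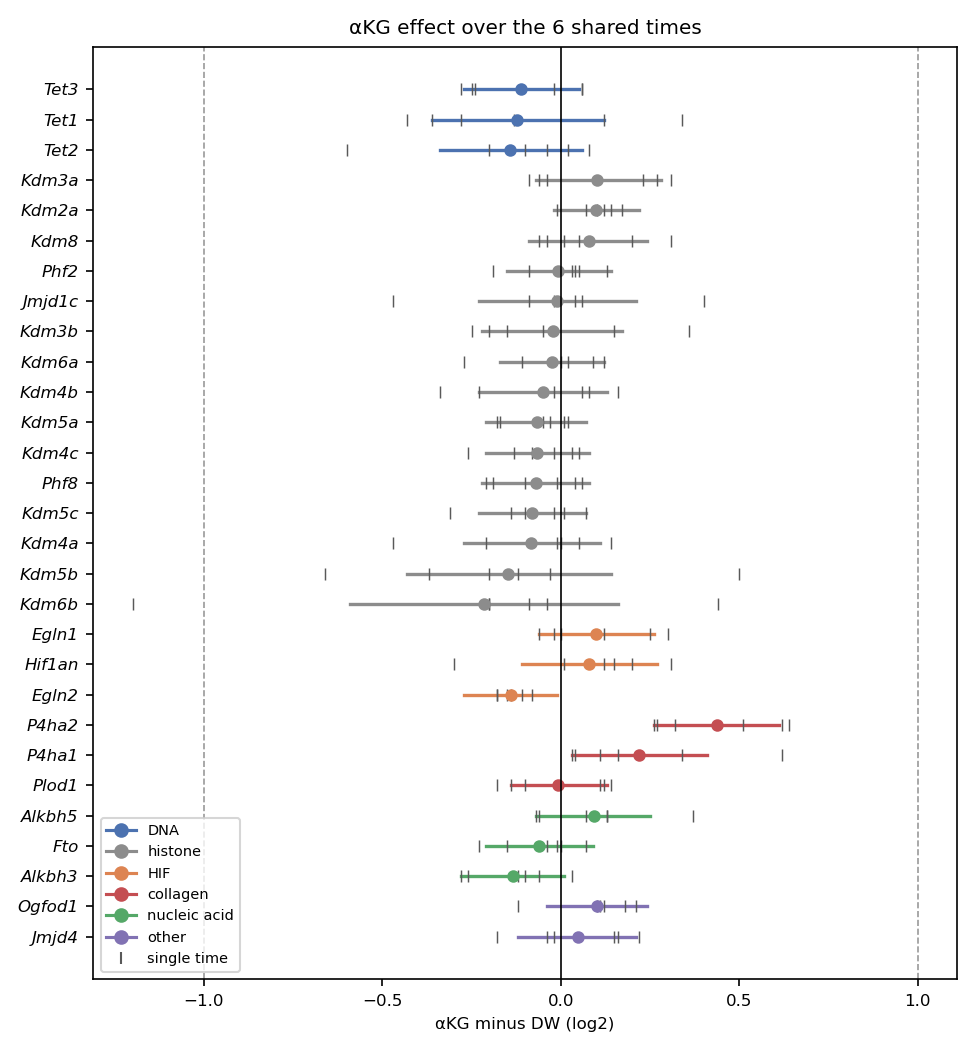
αKG minus DW over the 6 shared times (log2, horizontal axis) for each of the 29 genes, in classes by colour. Points are estimates of the mean difference over the times, bars its 95% intervals, grey ticks the differences at single times, and dashed lines 2-fold in either direction. All bars end inside the dashed lines, and P4ha2 at 0.437 lies farthest to the right.

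Among the collagen enzymes, P4ha2 had the highest αKG effect of all members and Plod1 passed against 0 h in both arms. P4ha2 encodes a catalytic subunit of collagen prolyl 4-hydroxylase, which stabilises the collagen triple helix. It read 5.78, 5.75, 5.27, 5.5, 5.33 and 5.32 log2 with αKG at 3, 6, 12, 24, 48 and 72 h, against 5.46, 5.11, 5, 4.99, 4.71 and 5.06 with DW. The arrays at 0 h read 5.74 and 5.69, and those with αKG at 0.5 and 1 h 5.69 and 5.77. The αKG array was thus above the DW array at each shared time, and at 3 and 6 h it stood at or above the level at 0 h. The difference over the 6 times was 0.437 ± 0.079 log2 (SE; 95% interval 0.26 to 0.61), higher at 6 of 6 times, with an adjusted p = 0.0602 in limma, above the threshold of 0.05. Its adjusted p was 0.0855 to 0.204 without any one of the 5 pairs from 3 to 48 h, where 0.0258% to 0.348% of all genes passed. Without the time block the adjusted p was 0.119, where 0.129% of all genes passed. P4ha2 passed where the arrays were centred on their medians (0.444, adjusted p = 0.0472). It also passed where the 72 h pair was left out (0.473, adjusted p = 0.036), a fit in which 1.12% of all genes passed.

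Against 0 h, P4ha2 in late arrays was at -0.388 ± 0.145 log2 with αKG (adjusted p = 0.295, limma) and fell by 0.83 ± 0.145 with DW (adjusted p = 0.00681). Without either 0 h array the DW value kept its size but not its call (-0.805 with an adjusted p = 0.0642, and -0.854 with an adjusted p = 0.0549). In intermediate arrays P4ha2 was at -0.329 with αKG (adjusted p = 0.504) and at -0.718 with DW (adjusted p = 0.0521). These comparisons share the 0 h arrays. The direct difference between αKG and DW in late arrays, 0.442 ± 0.151, had an adjusted p = 0.151.

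Plod1 encodes a lysyl hydroxylase, whose product on collagen serves crosslinks and sugar attachment. It read 10.25, 10.05, 9.95, 9.83, 9.8 and 9.86 log2 with αKG at 3, 6, 12, 24, 48 and 72 h, and 10.14, 10.23, 10.06, 9.97, 9.68 and 9.72 with DW at the same times. The 0 h arrays read 10.45 and 10.44, and the fast αKG arrays 10.33 and 10.45. Every array from 3 h on lay below both arrays at 0 h, in both arms. Plod1 fell by 0.616 ± 0.107 log2 in late αKG arrays (adjusted p = 0.0163, limma) and by 0.746 ± 0.107 in late DW arrays (adjusted p = 0.00254). In intermediate arrays it fell by 0.553 with αKG (adjusted p = 0.0465), and with DW it was at -0.432 (adjusted p = 0.117). The intermediate αKG call was lost without any one of its 4 arrays (adjusted p between 0.156 and 0.338) and under several other settings. The late DW call held without any single array of that comparison, with adjusted p between 0.00467 and 0.0335, and the late αKG call was lost without any one of its 4 arrays, with adjusted p between 0.0852 and 0.167 at values of -0.59 to -0.642. Over the 6 times αKG minus DW was -0.008 ± 0.061, with a 95% interval of -0.14 to 0.13. A mean difference beyond 0.14 in either direction is outside that interval, while single times differed by -0.18 to 0.14.

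P4ha1, the other catalytic prolyl hydroxylase subunit measured here, was chosen for description after its values were seen. It read 8.26, 8.37, 7.92, 8.73, 8.64 and 7.72 log2 with αKG from 3 to 72 h, against 8.23, 8.21, 7.81, 8.39, 8.03 and 7.67 with DW and 8.35 and 8.27 at 0 h. Both arms were low at 12 and 72 h and high at 24 h, and the αKG array was the higher one at 6 of 6 times by 0.03 to 0.62. The difference of 0.218 ± 0.085 did not pass (adjusted p = 0.312, limma). Plod2, a second lysyl hydroxylase, lay between 2.6 and 3.12 log2 on all arrays, under the cutoff on low values. Of 7 stromal markers, which include collagen genes, 4 lay above that cutoff and Pdgfra, Dcn and Lum below it, and the list summed to 8.16 to 8.3 in late αKG arrays, 8.06 to 8.44 in late DW arrays and 7.78 to 7.81 at 0 h.

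The promoters of the 3 tested collagen enzymes are shown because P4ha2 and Plod1 were the only members called against 0 h and P4ha1 is the near relative of P4ha2. They are RefSeq promoters on GRCm38.p6, from 250 bases before to 50 bases after the gene's start, and capitals mark ACGTG or GCGTG, the core of the HIF-binding element, on either strand (CACGT or CACGC where the match is on the other strand). P4ha2 lies at chr11:54100674-54100973 on the plus strand, Plod1 at chr4:147936727-147937026 on the minus strand and P4ha1 at chr10:59323046-59323345 on the plus strand.
P4ha2: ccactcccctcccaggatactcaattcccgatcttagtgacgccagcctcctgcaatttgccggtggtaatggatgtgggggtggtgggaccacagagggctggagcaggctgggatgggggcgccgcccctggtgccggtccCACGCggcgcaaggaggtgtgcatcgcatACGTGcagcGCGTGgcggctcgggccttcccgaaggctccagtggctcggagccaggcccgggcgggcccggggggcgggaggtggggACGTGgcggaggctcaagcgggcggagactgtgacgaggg
Plod1: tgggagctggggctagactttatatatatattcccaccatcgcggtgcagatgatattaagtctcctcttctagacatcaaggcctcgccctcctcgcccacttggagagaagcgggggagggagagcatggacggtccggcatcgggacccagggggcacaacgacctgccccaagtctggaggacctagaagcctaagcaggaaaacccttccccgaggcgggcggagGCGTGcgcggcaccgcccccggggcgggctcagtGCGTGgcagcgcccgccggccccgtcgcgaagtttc
P4ha1: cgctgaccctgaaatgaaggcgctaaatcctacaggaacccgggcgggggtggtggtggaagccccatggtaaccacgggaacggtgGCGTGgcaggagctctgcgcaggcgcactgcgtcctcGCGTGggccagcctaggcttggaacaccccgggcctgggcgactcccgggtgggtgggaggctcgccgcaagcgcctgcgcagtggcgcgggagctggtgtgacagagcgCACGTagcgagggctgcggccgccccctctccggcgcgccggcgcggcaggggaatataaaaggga
P4ha2 held 4 such cores, P4ha1 3 and Plod1 2, and none of them formed the palindrome in which ACGTG and CACGT overlap. At least 1 core was present in 18 of 32 promoters listed for 27 of the measured members (56.2%) and in 14380 of 32851 mouse promoters of the same length (43.8%). At least 3 matches were present in 21.9% of the member promoters and 8.93% of all promoters. A palindrome counted as 2 matches, and promoters of Kdm4c, Kdm6a and Egln2 among those with at least 3 held it. Promoters of the same gene were counted separately, and the sets were not matched for base composition. The difference in shares was not tested. A match of letters is a description and not evidence of binding.

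Against 0 h no dioxygenase gene other than Plod1 and P4ha2 passed a test on all arrays, and most of all genes did not pass either. The 8 osteoclast markers, a list of genes picked for their expression in osteoclasts, stood at a median of 3.394 log2 in late αKG arrays and 5.273 in late DW arrays. In late arrays 1 of 29 genes passed with αKG, Plod1, lower (background 1.43% of all genes, and 0.799% for lower genes alone, limma), and 2 of 29 passed with DW, Plod1 and P4ha2, both lower (background 6.64%, and 3.30% for lower genes alone). In intermediate arrays 1 of 29 passed with αKG, again Plod1, lower (0.670%, and 0.238% for lower genes alone), and 0 of 29 with DW (0.779%, 4 members at an unadjusted p under 0.05). In early arrays 0 of 29 passed with αKG (0.502%, 3 members at an unadjusted p under 0.05) and 0 with DW (0.341%, 3 members). In fast αKG arrays 0 of 29 passed and 0 had an unadjusted p under 0.05, while 0% of all genes passed. All these percentages refer to the adjusted threshold, and no share of all genes was counted at the unadjusted cutoff. With only the 2 groups compared in the fit, 0 members passed in late αKG, late DW or intermediate αKG arrays. In those fits 1.12%, 0.741% and 0% of all genes passed. Against 0 h the effect of RANKL cannot be told apart from that of culture time, and the αKG arrays differ from 0 h in αKG as well. The test over time asked for any difference of the early, intermediate or late arrays from 0 h (limma F test). Plod1 passed it with αKG (adjusted p = 0.0354, background 1.66%), and Plod1 and P4ha2 with DW (adjusted p = 0.0106 and 0.0222, background 4.44%).

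**Figure D2:**
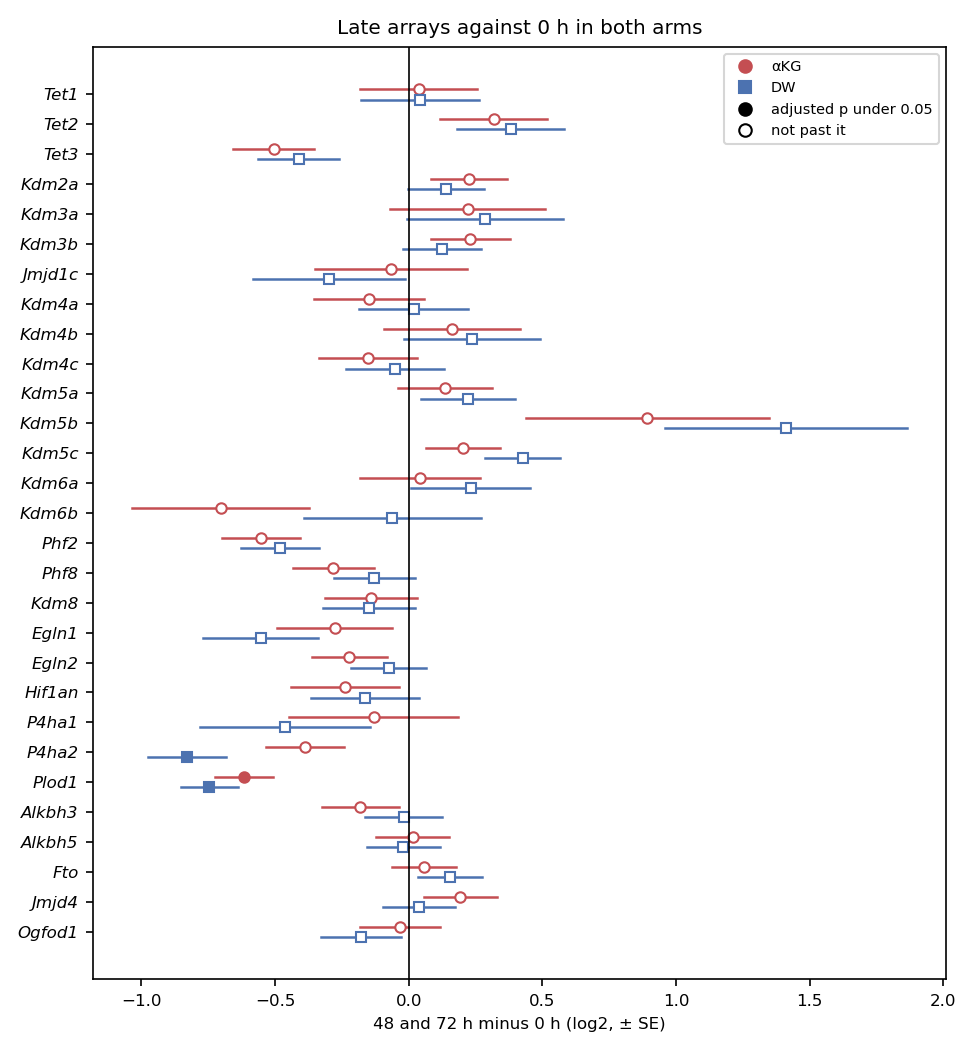
Late arrays (48 and 72 h) minus 0 h on the log2 scale for each of the 29 genes, αKG above DW in each row, with standard errors. Filled symbols have an adjusted p under 0.05, which holds for Plod1 in both arms (-0.616 with αKG, -0.746 with DW) and for P4ha2 with DW (-0.83). Both arms share the 2 arrays at 0 h.

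The 3 TET genes, whose products start the removal of cytosine methylation, passed no test on all arrays. Tet2 read 7.7, 7.98, 8.01, 8.05, 7.98 and 8.27 log2 with αKG from 3 to 72 h, against 8.3, 8.02, 8.11, 8.04, 7.9 and 8.48 with DW and 7.81 on both 0 h arrays. Only the αKG array at 3 h was below 0 h, and the DW array at 72 h was the highest. Tet2 was at 0.317 ± 0.201 in late αKG arrays (adjusted p = 0.618, limma) and at 0.381 ± 0.201 in late DW arrays (adjusted p = 0.315), where it passed without the 48 h array, as did 14.0% of all genes. Over the 6 times αKG minus DW was -0.143 ± 0.09 (adjusted p = 0.539), of which -0.6 fell at 3 h. Tet3, described after its values were seen, read 7.78, 7.93, 7.66, 7.91, 7.9 and 7.86 with αKG from 3 to 72 h, against 8.03, 7.96, 7.94, 7.84, 7.84 and 8.1 with DW and 8.3 and 8.47 at 0 h. All 12 of these RANKL arrays lay below both 0 h arrays, yet the late values of -0.505 with αKG and -0.412 with DW did not pass (adjusted p = 0.176 and 0.144). Tet1 ranged between 4.12 and 5 log2 and stood at 0.037 with αKG and 0.043 with DW in late arrays.

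Of the 15 tested histone demethylases 0 passed any comparison (limma), and all had late differences from 0 h between -0.704 and 0.893 log2 with αKG and between -0.481 and 1.411 with DW. Kdm2a, a demethylase that binds unmethylated CpG islands, read 8.92, 8.9, 8.89, 8.66, 8.68 and 8.74 with αKG from 3 to 72 h, against 8.76, 8.76, 8.9, 8.53, 8.58 and 8.67 with DW and 8.48 and 8.49 at 0 h. Every RANKL array was above both 0 h arrays, by up to 0.427 on average in early αKG arrays (adjusted p = 0.353). Its αKG effect over the 6 times was 0.099 ± 0.053 (adjusted p = 0.458), above 0 at 5 of 6 times.

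Kdm6b, which removes the repressive mark that the Polycomb enzyme Ezh2 sets on histone H3, had the largest αKG effect of its class in size. It read 7.08, 6.12, 6.28, 6.58, 6.41 and 6.13 log2 with αKG from 3 to 72 h, against 6.65, 6.16, 6.48, 6.78, 6.49 and 7.32 with DW and 7 and 6.94 at 0 h. The arms lay within 0.2 of each other from 6 to 48 h, the αKG array was 0.44 higher at 3 h, and it was 1.2 lower at 72 h, where the DW array had the highest value of all. αKG minus DW in late arrays was -0.641 ± 0.23 (adjusted p = 0.169, limma). It was -1.198 without the 48 h pair, which passed (adjusted p = 0.00198, in a fit where 12.1% of all genes passed), and -0.085 without the 72 h pair (adjusted p = 0.928), so its size rests on the 72 h arrays. A second feature of Kdm6b, with a mean of 4.79 log2, differed by -0.36 at 72 h and by -0.04 to 0.2 at the other times, so the features disagree in size.

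Kdm5b removes methyl groups from the histone H3 lysine that marks active promoters, and was described after its values were seen because it varied most among the members. It read 6.19, 6.38, 6.98, 6.35, 6.46 and 7.42 with αKG from 3 to 72 h, against 6.31, 6.58, 7.02, 5.86, 6.83 and 8.08 with DW and 5.94 and 6.14 at 0 h. Its range over the 16 arrays was 2.22 log2, with peaks at 12 and 72 h in both arms. In late arrays it was at 0.893 ± 0.453 with αKG (adjusted p = 0.488, limma) and at 1.411 ± 0.453 with DW (adjusted p = 0.0951). The DW value was 2.035 without the 48 h array, which passed (adjusted p = 0.0175, in a fit where 14.0% of all genes passed), and 0.786 without the 72 h array (adjusted p = 0.498). αKG minus DW in late arrays was -0.517 ± 0.149 (adjusted p = 0.0954), lower at both times. Without the 48 h pair it was -0.662, which passed (adjusted p = 0.0493, again beside 12.1% of all genes), and without the 72 h pair -0.373 (adjusted p = 0.5).

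Phf2 and Kdm5c also stood near the threshold. Phf2 was at -0.553 ± 0.145 in late αKG arrays (adjusted p = 0.108, limma) and at -0.481 ± 0.145 in late DW arrays (adjusted p = 0.0773). Kdm5c, X-linked and a relative of Kdm5b, was at 0.203 ± 0.14 with αKG (adjusted p = 0.656) and at 0.427 ± 0.14 with DW (adjusted p = 0.101). The other tested histone genes had late differences between -0.299 and 0.285 over both arms, and the dim Kdm4d ranged between 3.57 and 4.1 log2.

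**Figure D3:**
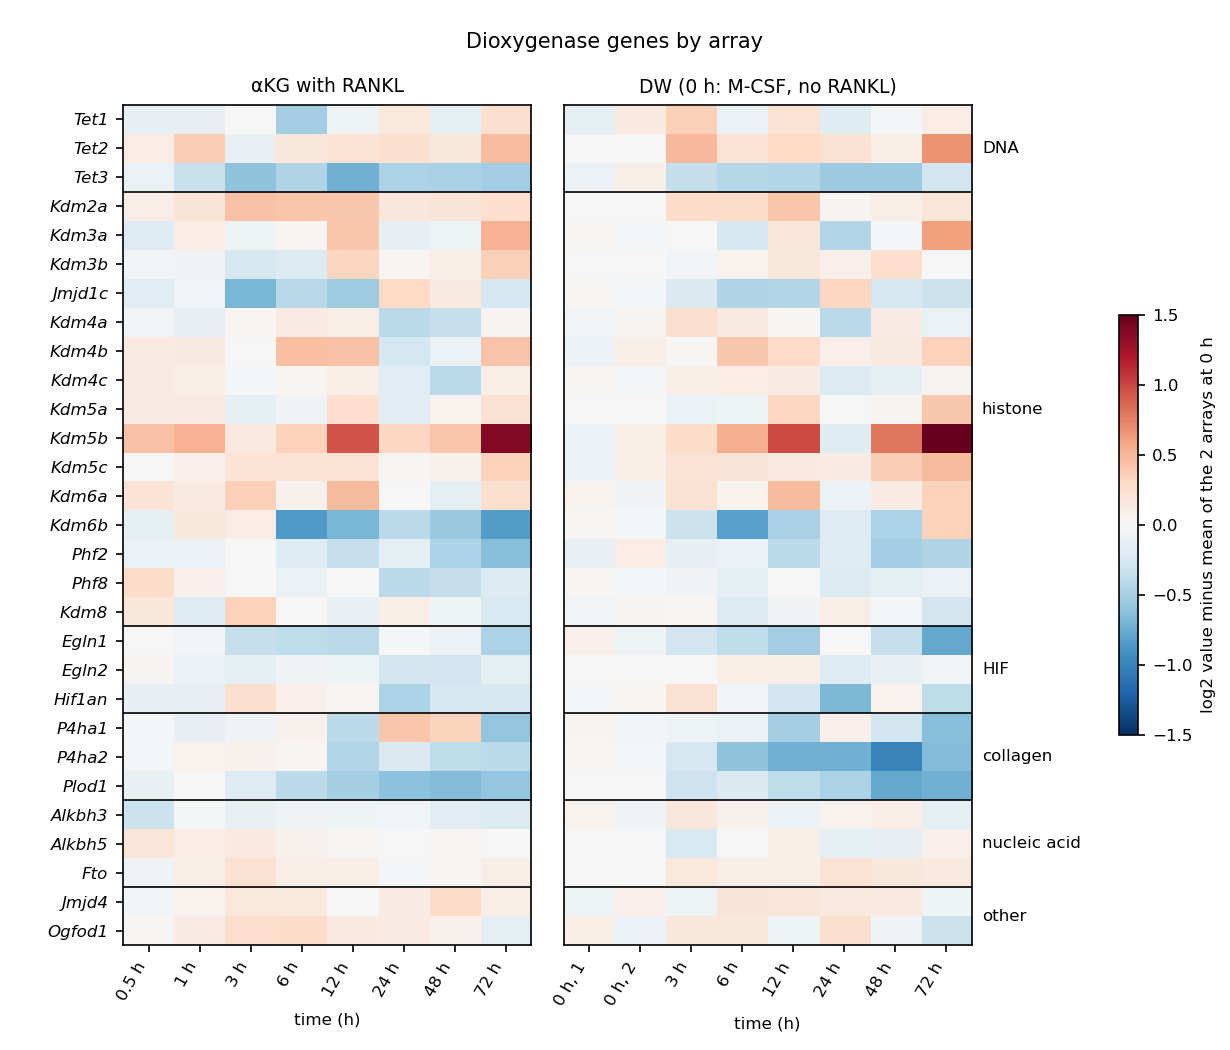
Log2 value minus the mean of the 2 arrays at 0 h for the 29 genes (rows, by class) in αKG arrays (left) and in 0 h and DW arrays (right), in order of time. Red is higher and blue lower than 0 h, and values beyond 1.5 are drawn in the end colour. Plod1 is blue in both panels from 3 h on, P4ha2 is deeper blue with DW than with αKG, and Kdm5b is darkest red at 72 h.

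Among the oxygen sensors of the HIF pathway none passed a test. Egln1 encodes the main prolyl hydroxylase that targets HIF for destruction. It read 7.37, 7.34, 7.31, 7.7, 7.63 and 7.25 log2 with αKG from 3 to 72 h, against 7.43, 7.34, 7.2, 7.72, 7.38 and 6.95 with DW and 7.8 and 7.64 at 0 h. Both arms returned to the 0 h range at 24 h and were low at 72 h. In late arrays Egln1 was at -0.277 ± 0.216 with αKG (adjusted p = 0.707, limma) and at -0.554 ± 0.216 with DW (adjusted p = 0.167), and αKG minus DW was 0.277 ± 0.107 (adjusted p = 0.201).

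Egln2, a second HIF prolyl hydroxylase, varied little. It read 7.09, 7.19, 7.16, 6.97, 6.95 and 7.09 with αKG from 3 to 72 h, against 7.23, 7.34, 7.34, 7.05, 7.13 and 7.2 with DW and 7.25 and 7.23 at 0 h. The αKG array was lower at 6 of 6 times, by 0.08 to 0.18, and the difference over the 6 times was -0.141 ± 0.058 (adjusted p = 0.329). Hif1an, the asparagine hydroxylase that blunts HIF activity, ranged between 5.8 and 6.71, and the dim Egln3 between 3.19 and 3.97.

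Of 18 tested genes of HIF subunits, Vhl and HIF targets, 1 rose with αKG over the 6 times and 0 fell, beside 0.399% of all genes, with a list median of 0.049 log2. The gene was Slc2a1, the glucose transporter, which read 9.53, 9.79, 8.52, 9.46, 9.52 and 7.94 with αKG from 3 to 72 h and 9.09, 8.51, 7.84, 8.83, 8.76 and 7.67 with DW. Its difference of 0.68 ± 0.112 had an adjusted p = 0.0483 (limma). That went to between 0.0664 and 0.194 without any one of the 5 pairs from 3 to 48 h, where 0.0258% to 0.348% of all genes passed. It was 0.0149 without the 72 h pair, where 1.12% of all genes passed. With the mean of all Slc2a1 features in place of 1 feature, the value was 0.365 (adjusted p = 0.112), and without the time block the adjusted p was 0.72. Against 0 h, 1 of the 18 passed, Epas1, a HIF subunit gene, lower in intermediate DW arrays, where 0.328% of all genes fell. It was at -0.74 in intermediate αKG arrays (adjusted p = 0.195) and fell by 1.081 in intermediate DW arrays (adjusted p = 0.045), and that call was lost without any one of its 4 arrays (adjusted p between 0.101 and 0.312). Hif1a itself was at -0.138 in late αKG arrays and at -0.259 in late DW arrays, neither past the test.

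The enzymes of RNA and damaged nucleic acids varied little over the arrays. Alkbh5, which removes methyl groups from adenosine in mRNA, read 8.23, 8.15, 8.1, 8.08, 8.1 and 8.09 log2 with αKG from 3 to 72 h, against 7.86, 8.08, 8.17, 7.95, 7.96 and 8.16 with DW and 8.08 and 8.09 at 0 h. Only the pair at 3 h differed by more than 0.13. Alkbh3, which repairs alkylated bases, read 7.34, 7.4, 7.39, 7.41, 7.3 and 7.25 with αKG, against 7.62, 7.52, 7.37, 7.51, 7.56 and 7.32 with DW and 7.51 and 7.4 at 0 h. It was lower with αKG at 5 of 6 times, and its difference of -0.134 ± 0.066 did not pass (adjusted p = 0.417, limma). Fto, the other demethylase of adenosine in mRNA, stayed between 6.68 and 6.96, and its SD of 0.081 over the 16 arrays was in the lowest 0.8% of all genes tested. The SDs of Alkbh5 (0.106) and Alkbh3 (0.124) lay at percentiles 4.3 and 10.6.

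Of the remaining members, Ogfod1, a prolyl hydroxylase of a ribosomal protein, read 7.88, 7.9, 7.77, 7.74, 7.68 and 7.48 with αKG from 3 to 72 h, against 7.79, 7.79, 7.56, 7.86, 7.57 and 7.3 with DW and 7.71 and 7.53 at 0 h. The αKG array was higher at 5 of 6 times, and the difference of 0.1 ± 0.064 did not pass (adjusted p = 0.55, limma). Jmjd4, a lysyl hydroxylase of a translation termination factor, ranged between 6.39 and 6.75, and the dim Bbox1, an enzyme of carnitine synthesis, between 3.02 and 3.52. Over the 16 arrays 5 of the 29 genes (17.2%) had a range above 1 log2, beside 28.8% of all genes tested, and the median SD was 0.196 for the members and 0.202 for all genes.

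**Figure D4:**
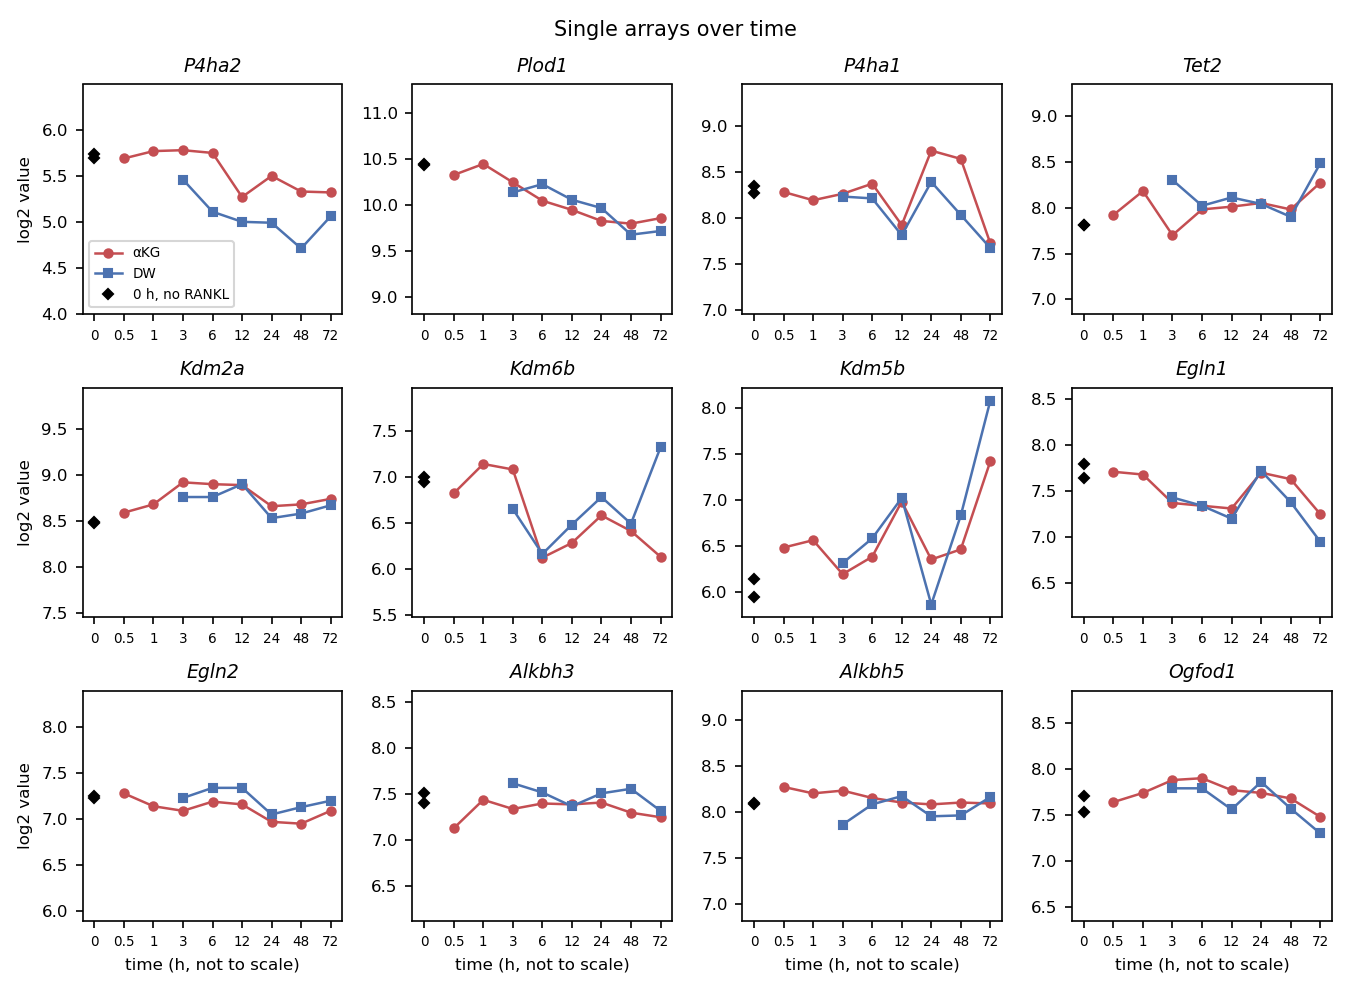
Log2 value on each array against time for 12 of the genes, αKG in red circles, DW in blue squares and the 2 arrays at 0 h in black. Times are evenly spaced and not to scale, and each panel spans 2.5 log2. P4ha2 shows the αKG line above the DW line at all 6 shared times, Plod1 descends in both arms, and Kdm5b and Kdm6b part at 72 h.

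Genes around the dioxygenases were counted in the same fits. Of 21 tested further members of the enzyme family, 0 passed between αKG and DW and 1 passed against 0 h (limma), in late DW arrays, where 3.34% of all genes rose. That gene was Jarid2, a JmjC protein of the Polycomb complex without demethylase activity, which rose by 0.872 ± 0.234 in late DW arrays (adjusted p = 0.0493) and was at 0.772 in late αKG arrays (adjusted p = 0.179); the DW call was lost without any one of the 4 arrays (adjusted p between 0.0906 and 0.227). Of 23 tested methyltransferases and partners that set the marks these enzymes remove, 1 rose in each late comparison and 0 fell, beside 0.631% of all genes that rose with αKG and 3.34% with DW. Dnmt3a, which adds methyl groups to DNA, rose by 1.073 ± 0.162 in late αKG arrays (adjusted p = 0.0085), a call lost without either 0 h array or the 72 h array, and by 1.453 ± 0.162 in late DW arrays (adjusted p = 0.000529). It read 8.26 and 8.59 with αKG at 48 and 72 h, against 8.7 and 8.92 with DW and 7.34 and 7.37 at 0 h. The difference between αKG and DW in late arrays, -0.38, had an adjusted p = 0.0714.

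Of 26 tested genes that make or use α-ketoglutarate or handle succinate, fumarate and 2-hydroxyglutarate, 6 fell and 0 rose with αKG in late arrays (limma, background 2.18% for lower genes), with a list median of -0.308 beside 0.011 for all genes. Among the 6 were Sdhb, a succinate dehydrogenase subunit (-0.592 ± 0.094, adjusted p = 0.0112), Idh3a, which makes α-ketoglutarate in the mitochondrion (-0.778 ± 0.127, adjusted p = 0.0125), fumarase Fh1 (-0.572, adjusted p = 0.0167) and Got1 (-0.662, adjusted p = 0.0298). Sdhb read 8.67 and 9.07 with αKG at 48 and 72 h, against 9.23 and 9.69 with DW. Leaving out the 48 h arrays raised the count to 14, while the share of all genes called went up to 12.1%, against 4.27% on all arrays. Leaving out those at 3, 6 or 72 h brought it to 2, where 1.77% to 2.1% of all genes passed. Without the time block it was 0, where 0.0451% of all genes passed. In late arrays against 0 h, 0 of the 26 passed with αKG and 7 rose with DW (background 3.34% for higher genes), with list medians of 0.124 and 0.444. The 7 were 0 without either 0 h array (1.91% or 1.62% of all genes) or the DW array at 72 h (2.96%), and 12 without the DW array at 48 h (14.0%).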

How the data were processed

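Biotin-labelled cDNA from total RNA was hybridised to 16 whole-transcript arrays of 1 colour, per the labels' protocols. The deposited log2 values were taken unchanged. The base was taken from their range (0.61 to 13.25), array medians (4.84 to 4.93) show that they had been normalized between arrays, and how the authors summarised, corrected and annotated them is not given in the sources used. Their number limits the precision, and background per gene could not be set.

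Of 33793 features, 23521 had 1 gene symbol, 1814 several and 8458 none here. IDs of 23328 features, and of the 33 members, were found in the mouse gene table. Genes in the lowest 30% of mean value were left out. Tests used limma 3.58.1 (R 4.3.3) with lmFit and a trended eBayes, and Benjamini-Hochberg adjustment over 15526 genes at 0.05. αKG was compared with DW on 12 arrays at 6 shared times with time as a block, as 1 effect (5 residual degrees of freedom) or 1 per group (3). Comparisons with 0 h came from 1 fit of 8 groups (8 residual degrees of freedom). Errors given as ± are standard errors. Pairing by time comes from the labels. Deviations of same-time arrays correlated at 0.5 to 0.75, and each αKG array correlated best with the DW array of its own time. The fits were tested on simulated data with planted effects larger than any member difference on all arrays. Whether effects of the members' size would be called was therefore not tested. The gene lists and the members were chosen with earlier results of these data known. Members given in every array passed a comparison, or had the highest mean or the largest αKG effect of their class. P4ha1, Tet3, Kdm5b, Phf2 and Kdm5c were added after their values were seen.

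Alternatives were no filter, a filter at 50%, centring on array medians, quantile normalization, eBayes robust or without trend, the mean of a gene's features, no time block, only the 2 groups compared, and leaving out each array or pair. Promoters are RefSeq's, on GRCm38.p6.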

Additional observations from a re-analysis of the deposited data

How the results depend on the processing

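Among the genes given with an adjusted p near or under the threshold, no direction reversed under any alternative. Over the 348 signed member values, quantile normalization changed 11 signs and centring 9, none moving by over 0.08 log2. Leaving out arrays moved member values by up to 0.62 log2 and changed up to 20 of 203 signed values at once (without a 0 h array) and 16 of 145 (without the 3 h pair). With centring on array medians, the number of members called became 1 for αKG over the 6 times (P4ha2), 1 for intermediate DW (P4ha2) and 0 for intermediate αKG. With the lowest 50% of genes left out it became 1 for intermediate DW. Intermediate αKG gave 0 without a filter, without the trend and with robust eBayes, and the test over time with αKG gave 0 without a filter. With only the 2 groups compared it was 3 for early αKG (Jmjd1c, Kdm2a and Tet3), where the share of all genes called was 5.11%, against 0.502% in the fit of 8 groups. It was 0 for intermediate αKG, late αKG and late DW, where 0%, 1.12% and 0.741% of all genes passed. Leaving out 1 pair in turn gave 0 to 1 for αKG over the 6 times (1 without 72 h, P4ha2), 0 to 2 for late αKG minus DW (2 without 48 h, Kdm5b and Kdm6b, beside 12.1% of all genes) and 0 to 2 for the late minus early effect (2 without 48 h, Kdm3b and Kdm6b, beside 9.69%). Leaving out 1 array in turn gave 1 to 4 for late DW against 0 h (1 without either 0 h array, 4 without 48 h: Kdm5b, P4ha2, Plod1 and Tet2, beside 14.0%). It gave 0 for intermediate αKG, 0 for late αKG, 0 for the test over time with αKG, and 0 to 2 for that with DW (0 without either 0 h array). In each of these αKG fits, and in the DW test over time without either 0 h array, fewer of all genes passed as well. Calls lost there are thus not particular to the members. The cause of these changes was not tested. A fit without an array differs both in the number of arrays and in which arrays remain. The fit without the time block covered only the comparisons of αKG with DW, where no member was called with the block, so no call could be lost. It called 0 members, beside 0.129% of all genes over the 6 times and 0.0451% in late arrays. With the block these shares were 0.399% and 4.27%. With 2 arrays per group, and 1 array at each time in each arm, a change at a single time has no replicate.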
